A study of Mus musculus with 62 samples.

Results

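The integrated stress response genes examined here are 10 listed members of the ATF4 pathway, out of 47643 genes in the deposited expression table of mouse brown adipose tissue. All 10 were found in the table by symbol. They were followed across 62 libraries in 12 groups. In the CAC groups, mice had been injected with cachectic melanoma cells, the kind that causes wasting, and tissue was taken 2, 4, 6 or 8 weeks later, with 5, 5, 5 and 7 libraries. In the NCAC groups, mice had been injected with non-cachectic melanoma cells, with 5 libraries at each week. In the Con groups, mice had been mock injected, with 5 libraries at each week. All mice were female and 2 months old. The sample labels give the strain as C57BL6/J, whereas the series text names NCI Ath/nude mice, so the strain is uncertain for every group. The labels call the libraries biological replicates. They do not say whether a library came from 1 mouse or from several, which melanoma lines were used, or how much tissue the tumour-bearing mice had lost.

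In the integrated stress response, kinases that sense amino acid shortage, unfolded protein, viral RNA or mitochondrial trouble phosphorylate the translation factor eIF2. General protein synthesis falls, while the mRNA of the transcription factor ATF4 is translated more, and ATF4 then raises genes for amino acid supply, for feedback on eIF2 and, in prolonged stress, for cell death. In brown fat, mitochondrial stress is known to engage this pathway and to release the hormones FGF21 and GDF15. Because ATF4 and ATF5 are controlled largely at translation, their mRNA levels do not report their protein levels.

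ATF4 binds with C/EBP partners at a composite DNA element, and the promoters of the members were searched for its core, TGATGNAA, on both strands in the 250 bases before each gene's start. The 10 members had 12 promoters in the RefSeq promoter table (GRCm38.p6), and a match was present in 3 of the 10 members, Chac1, Asns and Fgf21. Of all 32851 promoters in the table, 3.45% held a match. The 3 matching windows are shown because they belong to members whose levels are described below, with the match in capitals.
Chac1, chr2:119351038-119351067, plus strand: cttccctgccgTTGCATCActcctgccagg
Asns, chr6:7693214-7693243, minus strand: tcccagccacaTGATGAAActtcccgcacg
Fgf21, chr7:45615611-45615640, minus strand: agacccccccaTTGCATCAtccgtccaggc
Distances are counted from the start in the promoter table. For Asns and Chac1 that start lies inside the annotated span of the gene, so the Asns window falls within the Asns coordinates given below. The Asns match lay 23 to 16 bases before the start as written, and those of Fgf21 (139 to 132 bases before the start) and Chac1 (193 to 186 bases before the start) as the reverse complement. Searched the same way, the ER stress response element was present in 0.113% of all promoters and the PPAR direct repeat element in 0.0335%, and neither was found in a member's window. These are matches of letters only.

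Levels are in TPM, the unit of the deposited table, which corrects each gene for its length and each library for its total. The number of reads behind each value is unknown. Differences are log2 changes on the log2(TPM + 1) scale from 1 limma fit of all 62 libraries, and "called" means a p under 0.05 after Benjamini-Hochberg adjustment across 12581 genes, those that reached 1 TPM in 5 or more libraries. The scale understates the change of low genes. Where the libraries of 2 groups are said not to overlap, the share of all tested genes that separate likewise is not given here. In this bulk tissue, fewer cells of a type and less RNA per cell cannot be told apart. Brown adipocyte markers were present in every library, with Ucp1, the heat-producing uncoupling protein, between 1640 and 9679 TPM. Ucp1 averaged 3061 TPM in CAC at 8 weeks, 6263 TPM in NCAC and 5062 TPM in Con at 8 weeks. Cidea, Cpt1b, Elovl3, Dio2, Ppargc1a and Prdm16, the other brown adipocyte markers, averaged higher in CAC than in both on TPM that was not rescaled. For Prdm16 the means were 4.77 TPM in CAC and 4.73 TPM in NCAC. The sum of 4 melanocyte markers, none of which passed the filter, was 0.340 to 3.64 TPM; Tyr was at 0 in 61 of 62 libraries and Mlana in 10, whereas Pmel and Dct were at 0 in none. At 8 weeks that sum was 0.796 to 3.28 TPM in CAC, 0.694 to 1.06 TPM in NCAC and 0.456 to 1.05 TPM in Con. Transcripts of the mitochondrial genome took 39.6% to 66.1% of all TPM, and 44.3% to 55.6% in CAC at 8 weeks against 59.9% to 65.5% in Con at 8 weeks. TPM values share a fixed total, and at 8 weeks the median of all tested genes was 0.28 higher in CAC than in Con on the log2 scale. The called changes are therefore also given after rescaling the libraries by the median of ratios, which put that median at -0.01.

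Atf4, Atf5 and Asns were the most abundant members, with medians over all libraries of 96.9, 122 and 40.9 TPM. Ddit3, Ppp1r15a and Sesn2 were intermediate, with medians of 14.2, 8.46 and 7.68 TPM, and Trib3 and Chac1 were low, with 3.83 and 1.65 TPM. The secreted members were scarce. Fgf21 reached 1 TPM in 7 libraries and had its highest value at 2.15 TPM. In CAC these were 1, 2 and 2 libraries at 4, 6 and 8 weeks, and in Con 1 at 4 and 1 at 6 weeks. No NCAC library reached 1 TPM. Fgf21 therefore passed the filter only through CAC libraries, and its calls in CAC cannot be read apart from that filter. Gdf15 lay between 0 and 0.158 TPM and was at 0 in 12 libraries, so it failed the filter and 9 of 10 members were tested. The mean level was highest in CAC at 8 weeks for Atf4, Trib3, Asns, Chac1, Sesn2, Fgf21 and Ppp1r15a, whereas Atf5 was highest in Con at 2 weeks, Ddit3 in Con at 4 weeks and Gdf15 in NCAC at 6 weeks. When the 12 group means were ranked, 0 of the 11 gaps between neighbours was larger than the larger SD of the 2 neighbours, for each of the 10 members.

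**Figure D1:**
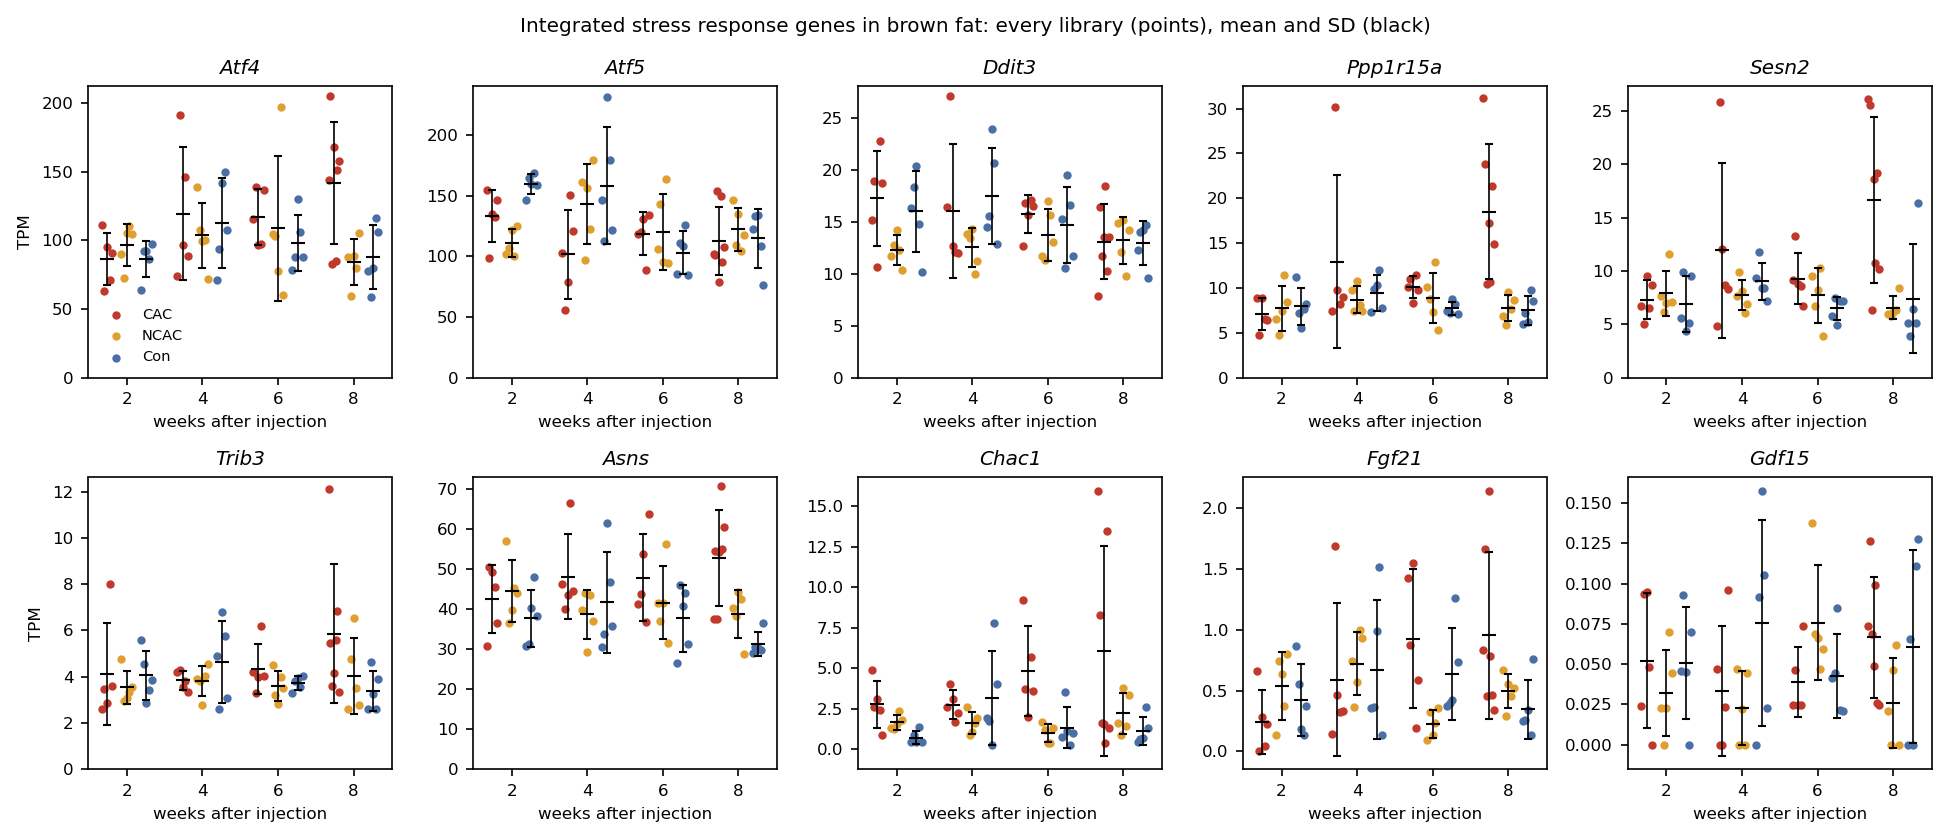
Level of each member (TPM, vertical axis) by weeks after injection, for CAC, NCAC and Con; each point is 1 library, and the black marks are the mean and SD. In the Ppp1r15a panel the 7 CAC libraries at 8 weeks, from 10.4 to 31.1 TPM, lie above all 8-week NCAC and Con libraries, whereas Ddit3 and Atf5 overlap between groups at 8 weeks.

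At 8 weeks, 7 of the 9 tested members were higher in CAC than in Con and 0 were lower, at a background of 52.1% of all tested genes called higher. The rise covered Atf4 itself, both feedback genes Ppp1r15a and Trib3, the nutrient genes Asns and Sesn2, the glutathione enzyme Chac1 and the hormone Fgf21. It did not cover the transcription factors Atf5 and Ddit3. Fgf21 counts among the 7 only because CAC libraries took it past the filter. The median change of the 9 members was 0.66, against 0.28 for all tested genes. After rescaling, 2 members were called higher, Ppp1r15a and Sesn2, at a background of 13.5%, and the median change was 0.36 for the members against -0.01 for all tested genes. With CAC and Con at 8 weeks alone in the fit, 4 members were called, without Trib3 (adjusted p = 0.0684), Chac1 (adjusted p = 0.11) and Fgf21 (adjusted p = 0.0735). The share of all genes called in that fit is not given here.

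Ppp1r15a encodes GADD34, the stress-induced subunit that brings a phosphatase to eIF2 and so ends the response; the gene lies on chromosome 7 (mm10, 45522916 to 45526268, minus strand). Its lowest, median and highest levels in the 7 CAC libraries at 8 weeks were 10.4, 17.3 and 31.1 TPM, against 5.92, 7.20, 6.19, 9.72 and 8.52 TPM in the 5 Con libraries. Every CAC library was above every Con library, and the share of all tested genes that separate likewise is not given here. The means were 18.5 ± 7.49 TPM in CAC (SD, n = 7) and 7.51 ± 1.60 TPM in Con (SD, n = 5), a log2 change of 1.13 (SE 0.22, adjusted p = 5.88e-05). After rescaling the change was 0.80 (adjusted p = 0.00355). In NCAC at 8 weeks the 5 libraries held 6.88, 5.86, 9.56, 7.62 and 8.70 TPM, again all below the CAC libraries, and CAC exceeded NCAC by 1.09 (SE 0.22, adjusted p = 0.00017). Leaving out any 1 CAC, NCAC or Con library at 8 weeks kept the call against both groups. Ppp1r15a shares 717 bases with Tulp2 on the opposite strand, and the library kit was stranded, but whether counting used strand is not given in the sources used here.

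Sesn2 encodes sestrin 2, a leucine-binding inhibitor of the growth kinase mTORC1, and lies on chromosome 4 (132492032 to 132510501, minus strand). Its lowest, median and highest levels in CAC at 8 weeks were 6.31, 18.6 and 26.1 TPM, against 5.09, 3.91, 6.42, 5.09 and 16.4 TPM in Con. One Con library, at 16.4 TPM, lay inside the CAC range, and 4 of the 7 CAC libraries were above all Con libraries. Sesn2 had a log2 change of 1.10 (SE 0.27, adjusted p = 0.000834), and of 0.78 after rescaling (adjusted p = 0.0277). Without the Con library at 16.4 TPM the change was 1.40 (adjusted p = 5.96e-05). In NCAC at 8 weeks the levels were 6.00, 5.76, 6.15, 6.37 and 8.40 TPM, and 6 of the 7 CAC libraries were above all of them. CAC exceeded NCAC by 1.10 (SE 0.27, adjusted p = 0.0014).

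Atf4, on chromosome 15 (80255184 to 80257541, plus strand), is the transcription factor at the centre of the pathway. Its lowest, median and highest levels in CAC at 8 weeks were 82.5, 151 and 205 TPM, against 77.9, 59.1, 79.7, 117 and 106 TPM in Con. Of the 7 CAC libraries, 5 were above all Con libraries and 2, at 82.5 and 85.0 TPM, lay within the Con range. The change was 0.66 (SE 0.23, adjusted p = 0.0131), but 0.31 after rescaling (adjusted p = 0.29), and without Con library 2 it was 0.53 (adjusted p = 0.0595). Against NCAC, whose levels were 88.1, 59.7, 88.7, 80.0 and 105 TPM, the change was 0.70 (SE 0.23, adjusted p = 0.0123). That call also ended after rescaling (0.44, adjusted p = 0.116) and without NCAC library 2 (0.58, adjusted p = 0.0548).

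Atf5 and Ddit3 are the other transcription factors, Atf5 a relative of ATF4 that acts in mitochondrial protein stress and Ddit3 the cell death regulator CHOP. Atf5 ranged from 78.5 to 154 TPM in CAC at 8 weeks, with a median of 102 TPM, against 122, 133, 134, 108 and 76.0 TPM in Con. Ddit3 ranged from 7.85 to 18.4 TPM in CAC, with a median of 13.5 TPM, against 12.3, 14.0, 14.2, 14.8 and 9.63 TPM in Con. For both genes the CAC and Con ranges overlapped. The log2 changes were -0.04 for Atf5 (95% interval -0.40 to 0.33, adjusted p = 0.884) and -0.01 for Ddit3 (95% interval -0.38 to 0.35, adjusted p = 0.955). After rescaling they were -0.39 (adjusted p = 0.0954) and -0.34 (adjusted p = 0.128). When mitochondrially encoded genes were removed and the rest rescaled, Atf5 was called lower in CAC, by -0.44 against Con (adjusted p = 0.0433) and by -0.43 against NCAC (adjusted p = 0.0491). Ddit3 has a longer and a shorter protein-coding entry in the annotation, both on the plus strand of chromosome 10. The shorter (127290829 to 127293753) lies inside the longer (127290774 to 127296288), and how the deposited Ddit3 level treats them is not known. Ddit3 overlaps Mars by 68 bases and Atf5 overlaps Nup62 by 571 bases, both on opposite strands. Mars had a median of 35.5 TPM over all libraries and Nup62 of 11.3 TPM, so reads of these neighbours may be counted in either gene if strand was not used.

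**Figure D2:**
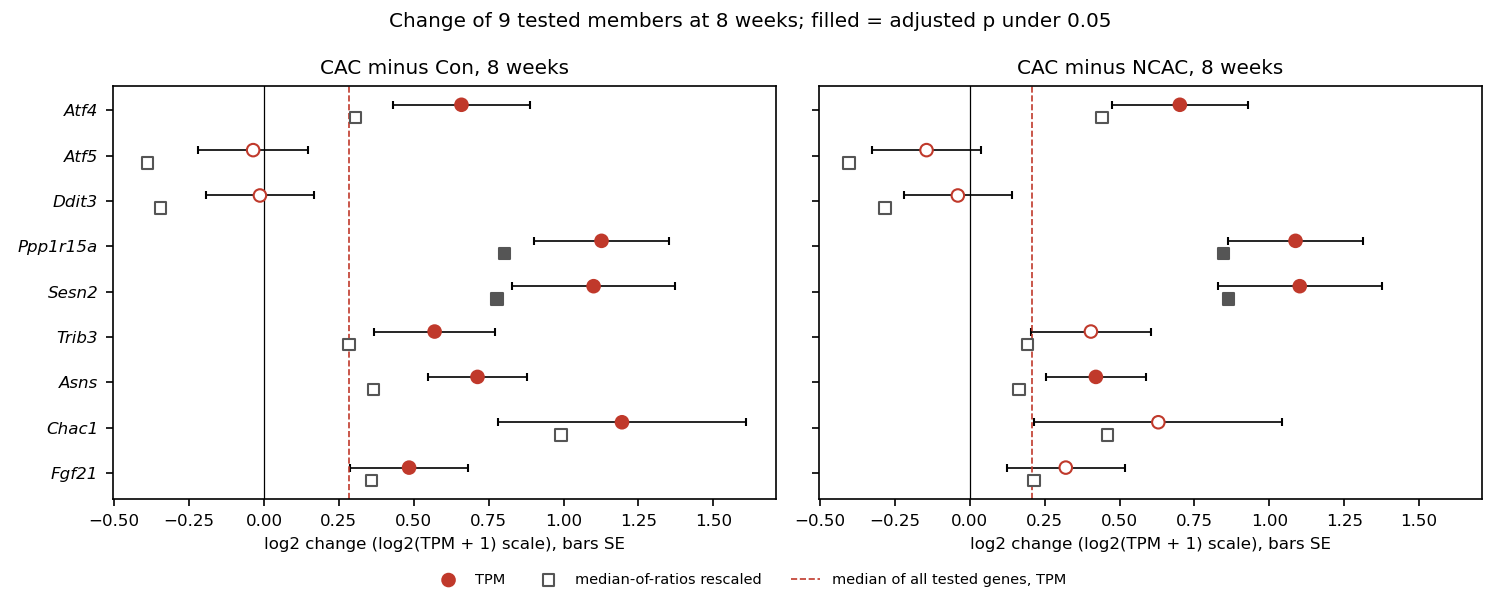
Log2 change of the 9 tested members at 8 weeks, CAC minus Con (left) and CAC minus NCAC (right), with SE bars; circles are TPM as deposited, squares are median-of-ratios rescaled values, filled symbols have an adjusted p under 0.05, and the dashed line is the median of all tested genes. Ppp1r15a and Sesn2 are filled in both scalings and both panels, and Atf5 and Ddit3 lie at or below 0.

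Asns makes asparagine from aspartate and glutamine and is a standard readout of ATF4; it lies on chromosome 6 (7675169 to 7693254, minus strand). Its lowest, median and highest levels in CAC at 8 weeks were 37.5, 54.4 and 70.7 TPM, against 29.0, 30.7, 30.2, 29.7 and 36.6 TPM in Con. The 2 groups did not overlap, where 52.1% of all tested genes were called higher. The share of genes that separate likewise is not given here. The change was 0.71 (SE 0.17, adjusted p = 0.000426), and 0.36 after rescaling (adjusted p = 0.0524). Against NCAC, with 40.2, 38.2, 44.2, 42.4 and 28.7 TPM, it was 0.42 (SE 0.17, adjusted p = 0.0398). That smaller difference lost its call after rescaling (0.16, adjusted p = 0.426), with the compared groups alone in the fit (adjusted p = 0.0773) and without any 1 of CAC libraries 2, 4, 5, 6 and 7 or NCAC libraries 1, 2 and 5, where it lay between 0.32 and 0.44.

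Chac1 encodes an enzyme that breaks down glutathione, and Trib3 a pseudokinase that is induced by ATF4 and restrains it. Chac1 split the CAC libraries at 8 weeks: libraries 1, 6 and 2 held 15.9, 13.5 and 8.30 TPM, whereas the other 4 held 0.392 to 1.63 TPM. The Con libraries held 0.492, 0.665, 0.724, 2.61 and 1.32 TPM, so 3 of the 7 CAC libraries were above all of them. The change was 1.20 (SE 0.41, adjusted p = 0.0134), and 0.99 after rescaling (adjusted p = 0.057). Without CAC library 1 it was 0.89 (adjusted p = 0.0554), and without CAC library 6 it was 0.92 (adjusted p = 0.0531). Trib3 held a lowest, median and highest level of 3.32, 5.44 and 12.1 TPM in CAC, against 2.60, 4.61, 3.24, 2.59 and 3.89 TPM in Con, with 4 of 7 CAC libraries above all Con libraries. Its change was 0.57 (SE 0.20, adjusted p = 0.0154), and 0.28 after rescaling (adjusted p = 0.262). It lost its call without CAC library 1 (0.40, adjusted p = 0.0694) or Con library 1 (0.50, adjusted p = 0.0526).

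The hormones gave little signal. Fgf21, a fasting and stress hormone made mainly by liver, held a lowest, median and highest level of 0.343, 0.789 and 2.15 TPM in CAC at 8 weeks, against 0.247, 0.260, 0.340, 0.132 and 0.762 TPM in Con. The change was 0.48 (SE 0.20, adjusted p = 0.0348) at levels near or under 1 TPM, and 0.36 after rescaling (adjusted p = 0.156). Its call ended without any 1 of CAC libraries 2 and 4 or Con libraries 1, 2, 3 and 4, with changes between 0.36 and 0.49. The summed TPM of 5 hepatocyte markers was 0.211 to 0.696 in CAC at 8 weeks and 0.0823 to 0.294 in Con at 8 weeks, and its part in the Fgf21 level was not tested. Gdf15, a stress hormone that suppresses appetite, averaged 0.0667 ± 0.0375 TPM in CAC (SD, n = 7) and 0.0608 ± 0.0600 TPM in Con (SD, n = 5). In a fit with no filter on low values its change was 0.01 (SE 0.03, adjusted p = 0.903).

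Against NCAC at 8 weeks, 4 of the 9 tested members were called higher in CAC and 0 lower, at a background of 37.3% of all tested genes called higher. They were Atf4, Asns, Sesn2 and Ppp1r15a. The median change of the members was 0.42, against 0.21 for all tested genes. After rescaling, Sesn2 (0.86, adjusted p = 0.0164) and Ppp1r15a (0.85, adjusted p = 0.00232) were called, at a background of 12.9%. Trib3 differed by 0.40 (adjusted p = 0.104), Chac1 by 0.63 (adjusted p = 0.222) and Fgf21 by 0.32 (adjusted p = 0.192), and none of these 3 passed the test. Trib3 passed it without CAC library 3 (0.48), CAC library 7 (0.50) or NCAC library 3 (0.56). The comparisons with NCAC and with Con share the CAC libraries.

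The 7 CAC libraries at 8 weeks differed among themselves. Library 1 held the highest level of all 62 libraries for Ppp1r15a, Sesn2, Trib3 and Chac1, yet the lowest of all 62 for Ddit3, at 7.85 TPM. Library 2 held the highest Atf4 of all 62, at 205 TPM. Library 3 was lowest of the 7 for Atf4, Sesn2 and Ppp1r15a and highest for Atf5. Other transcripts also differed between the 8-week groups. The sum of 10 immediate early genes (Fos, Jun, Egr1 and others that respond within minutes to handling or signals, a list chosen after the values were seen) was 603 TPM in library 1 and 104 to 282 TPM in the other CAC libraries. It was 43.2 to 87.4 TPM in NCAC and 59.2 to 132 TPM in Con at 8 weeks. The summed level of 6 macrophage markers, all of them tested, was 122 to 319 TPM in CAC, 45.7 to 86.2 TPM in NCAC and 58.4 to 79.8 TPM in Con at 8 weeks. The sum of 5 gland and surface epithelium markers, all tested, was 1.03 to 35.6 TPM in CAC, 19.3 to 116 TPM in NCAC and 15.5 to 111 TPM in Con. The sum of 7 brown adipocyte markers was 3938 to 7836 TPM in CAC, 6444 to 12657 TPM in NCAC and 6687 to 8431 TPM in Con. Ucp1 was the largest part of that sum and averaged lower in CAC. The other brown adipocyte markers averaged higher in CAC than in NCAC and Con at 8 weeks. Cidea, for instance, averaged 2091 TPM in CAC, 1661 TPM in NCAC and 1551 TPM in Con. Prdm16 averaged 4.77, 4.73 and 4.49 TPM. These means are not rescaled, and the median of all tested genes was 0.21 higher against NCAC and 0.28 higher against Con on the log2 scale. The part of these transcripts in the member levels was not tested.

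**Figure D3:**
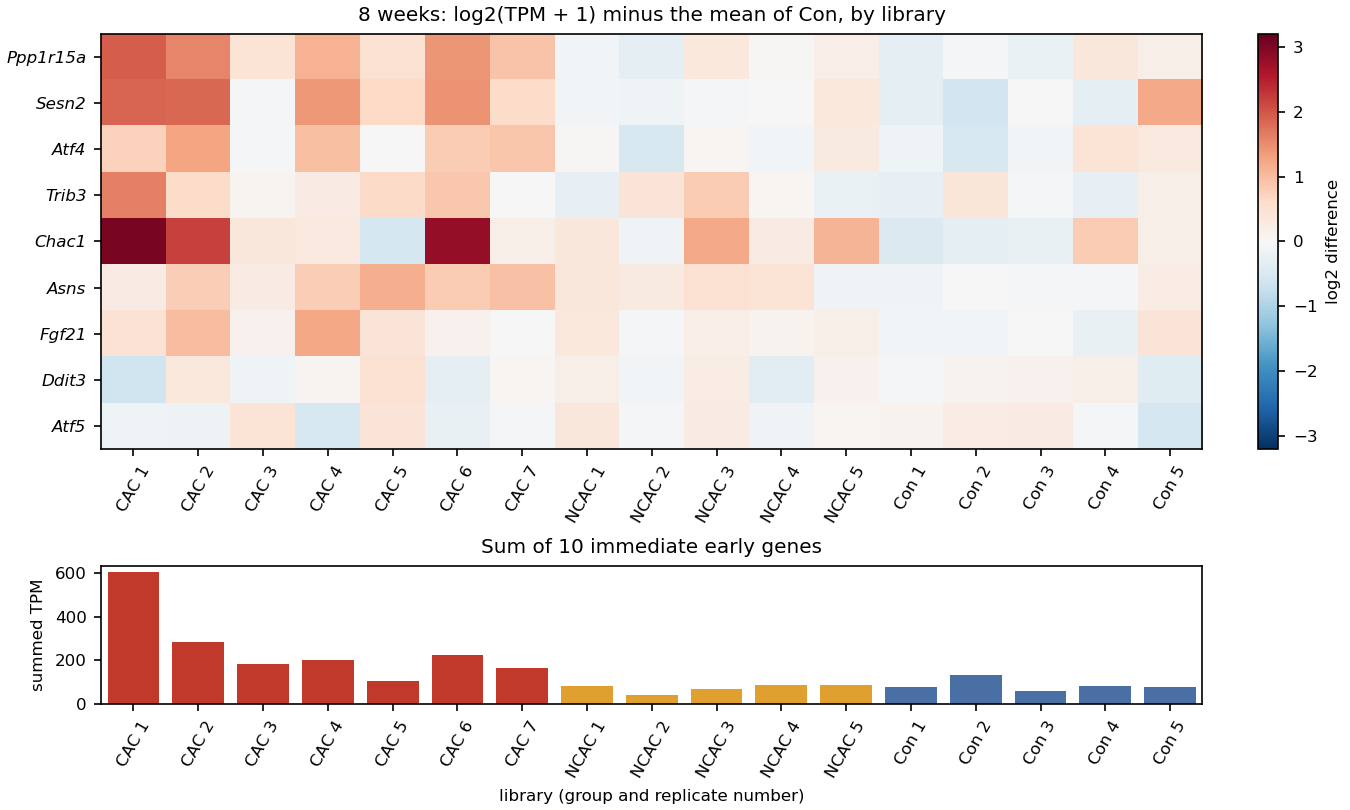
Top, log2(TPM + 1) of 9 members in each 8-week library (columns) minus the mean of Con, with red above and blue below that mean; bottom, the summed TPM of 10 immediate early genes in the same libraries. CAC libraries 1, 2 and 6 are the darkest red for Chac1, and library 1 has the highest immediate early sum, at 603 TPM.

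At 6 weeks, 1 member was called against each group. Chac1 held 9.22, 3.73, 2.01, 5.68 and 3.57 TPM in CAC, against 0.746, 3.55, 1.15, 0.296 and 1.03 TPM in Con and 1.71, 1.20, 0.423, 0.426 and 1.32 TPM in NCAC. All 5 CAC libraries were above all 5 NCAC libraries, and 4 of 5 were above all Con libraries. How many of all tested genes separate likewise is not given here. The change was 1.46 against NCAC (SE 0.45, adjusted p = 0.0309, background 5.82% called higher) and 1.33 against Con (SE 0.45, adjusted p = 0.0286, background 20.7% called higher). After rescaling it was 1.40 against NCAC (adjusted p = 0.0257) and 1.20 against Con (adjusted p = 0.0736). The call against NCAC ended without any 1 of CAC libraries 1 and 4 or NCAC libraries 3 and 4 (changes 1.23 to 1.38), and that against Con without any 1 of CAC libraries 1 and 4 or Con libraries 1, 4 and 5 (changes 1.09 to 1.31). Fgf21 differed from NCAC by 0.60 at 6 weeks (adjusted p = 0.0723), with 1.43, 0.878, 1.55, 0.196 and 0.585 TPM in CAC against 0.0912, 0.320, 0.131, 0.235 and 0.354 TPM in NCAC. It passed the test without CAC library 4 (0.76). With CAC and Con at 6 weeks alone in the fit, Ppp1r15a was also called (0.34, adjusted p = 0.0334). The macrophage sum at 6 weeks was 183 to 227 TPM in CAC, 66.5 to 168 TPM in NCAC and 48.0 to 158 TPM in Con. The immediate early sum was 84.2 to 483 TPM in CAC, 51.3 to 146 TPM in NCAC and 80.2 to 103 TPM in Con, and the epithelium sum was 5.65 to 16.5 TPM in CAC, 1.22 to 176 TPM in NCAC and 11.6 to 80.2 TPM in Con. The skeletal muscle sum was 530 to 3496 TPM in CAC, 408 to 2688 TPM in NCAC and 82.3 to 4204 TPM in Con. The part of these sums in the Chac1 level was not tested.

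At 4 weeks, Atf5 was the 1 member called against Con, and it was lower in CAC, where 3.03% of all tested genes were called lower. It held 103, 55.7, 78.6, 150 and 121 TPM in CAC and 146, 112, 231, 179 and 121 TPM in Con, with overlap. The change was -0.66 (SE 0.20, adjusted p = 0.0446), and -0.57 after rescaling (adjusted p = 0.0609). It lost its call without any 1 of CAC libraries 1, 2 and 3 or Con libraries 3 and 4, and without both of those Con libraries it was -0.39 (adjusted p = 0.439). With the compared groups alone in the fit the adjusted p was 0.578. Con libraries 3 and 4 had mitochondrial shares of 39.6% and 39.7%, the lowest of all 62. The titles of CAC library 1 and Con library 1 at 4 weeks carry the same number, which the labels do not explain. CAC library 2 at 4 weeks stood apart in several members: 30.2 TPM of Ppp1r15a, 25.9 TPM of Sesn2, 191 TPM of Atf4, and, with the highest Ddit3 and the lowest Atf5 of all 62 libraries, 27.2 and 55.7 TPM. Its immediate early sum was 416 TPM, against a group median of 109 TPM.

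At 2 weeks, 0 of the 9 members were called in CAC against Con, at a background of 4.63% called in either direction, and 1 member had an unadjusted p under 0.05. That was Chac1, at 4.92, 2.59, 3.08, 2.41 and 0.902 TPM in CAC and 0.465, 0.918, 0.436, 1.41 and 0.449 TPM in Con, with 4 of 5 CAC libraries above all Con libraries and a change of 1.06 (SE 0.45, adjusted p = 0.185). With the compared groups alone in the fit it passed the test (adjusted p = 0.0338). The skeletal muscle sum at 2 weeks was 1034 to 11847 TPM in CAC and 64.7 to 1964 TPM in Con. Its part in the Chac1 level was not tested. CAC against NCAC also gave 0 calls at 2 weeks (background 0.0397%) and at 4 weeks (background 0.588%), with 1 member at an unadjusted p under 0.05 each time. The 2 were Ddit3 at 2 weeks, at 0.43 (adjusted p = 0.351), and Atf5 at 4 weeks, at -0.53 (adjusted p = 0.263).

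**Figure D4:**
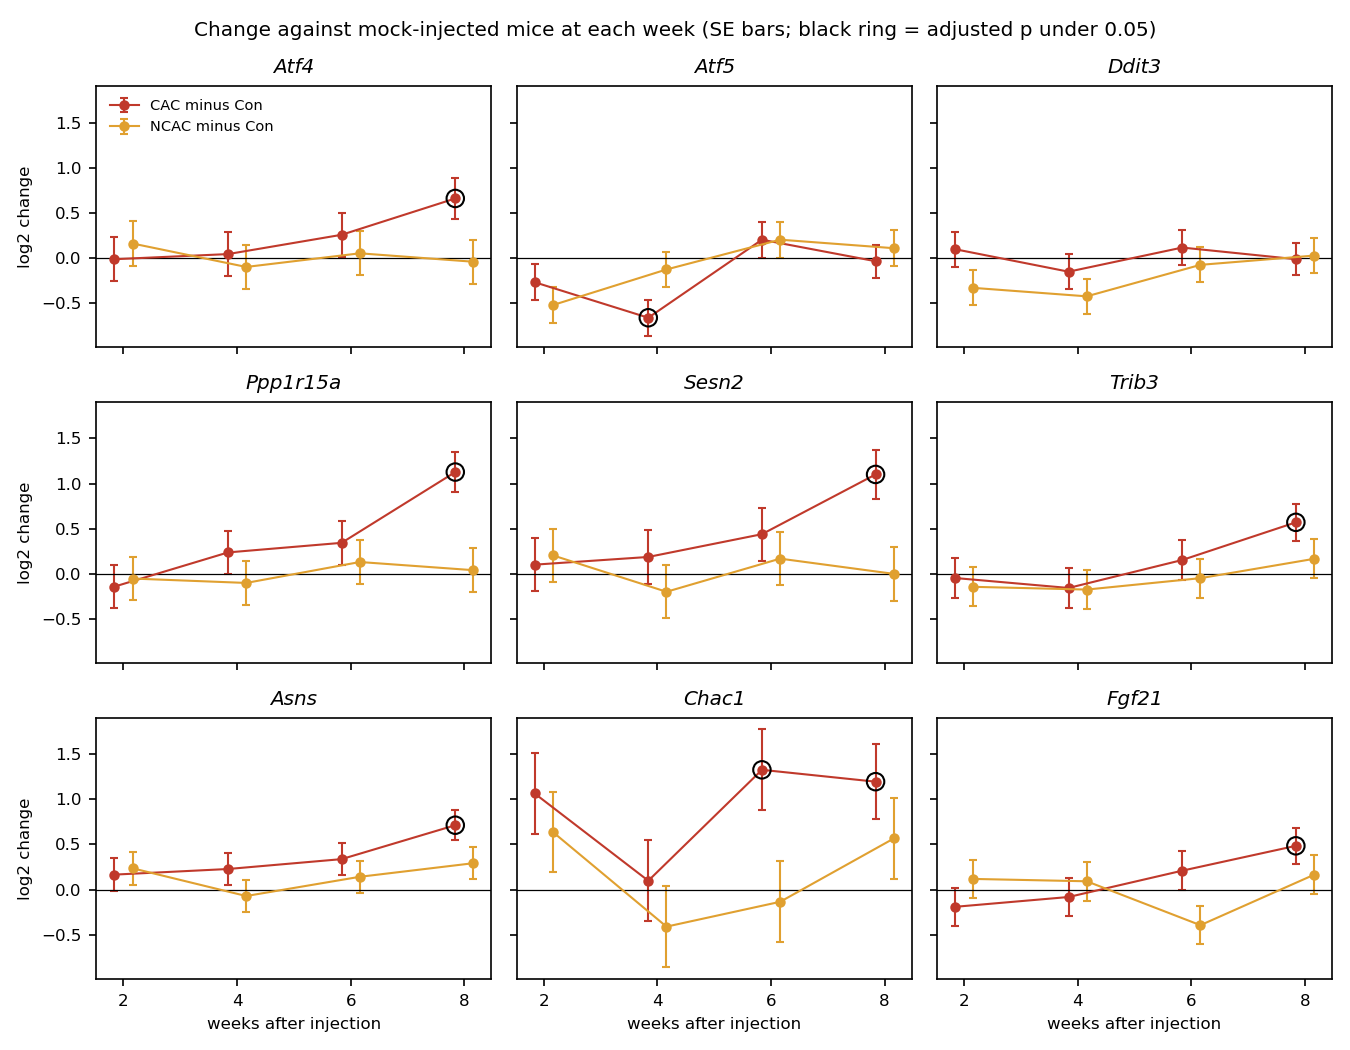
Log2 change of the 9 tested members against Con at each week, for CAC and NCAC, with SE bars; both lines share the Con libraries, and a black ring marks an adjusted p under 0.05. Ringed points are CAC only: Atf5 at 4 weeks (-0.66), Chac1 at 6 weeks (1.33) and 7 members at 8 weeks.

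With all groups in the fit, the non-cachectic tumour gave no call in any member. In limma, NCAC against Con had 0 of 9 members called at each of the 4 weeks, and 0, 1, 0 and 0 of all 12581 genes at 2, 4, 6 and 8 weeks (0%, 0.00795%, 0% and 0%). At an unadjusted p under 0.05 there was 1 member at 2 weeks, 1 at 4 weeks and 0 at 6 and 8 weeks. At 8 weeks the change was 0.04 for Ppp1r15a (95% interval -0.45 to 0.52) and -0.04 for Atf4 (95% interval -0.53 to 0.45). Sesn2 differed by less than 0.01 in size, with a 95% interval of -0.59 to 0.59. Atf5 at 2 weeks held 102, 107, 122, 99.8 and 125 TPM in NCAC, all below the 146, 164, 159, 168 and 159 TPM of Con, with a change of -0.52 that did not pass the test (SE 0.20, adjusted p = 0.51). With those 2 groups alone in the fit it passed (adjusted p = 0.0297).

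Within the cachectic arm, 4 of the 9 tested members were higher at 8 weeks than at 2 weeks, at a background of 15% of all tested genes called higher. Ppp1r15a rose by 1.21 (SE 0.22, adjusted p = 8.6e-05), with 10.4 to 31.1 TPM at 8 weeks, against 8.89, 4.75, 8.88, 6.50 and 6.43 TPM at 2 weeks and no overlap. How many of all tested genes separate likewise is not given here. Sesn2 rose by 0.98 (adjusted p = 0.00792), Atf4 by 0.67 (adjusted p = 0.0293) and Fgf21 by 0.61 (adjusted p = 0.0233). Fgf21 was tested only because CAC libraries took it past the filter. With those 2 groups alone in the fit, Ppp1r15a was the 1 member called (adjusted p = 0.0126), and Sesn2, Atf4 and Fgf21 had adjusted p = 0.0576, 0.0779 and 0.0895. After median-of-ratios rescaling the 4 stayed called and Ddit3 was called lower (-0.46, adjusted p = 0.0418). The shares of all genes called in these refits are not given here. Atf4 lost its call without any 1 of 8-week libraries 2, 4, 6 and 7 or 2-week libraries 2 and 4 (0.57 to 0.65), and Fgf21 without any 1 of 8-week libraries 2 and 4 or 2-week libraries 2 and 4 (0.48 to 0.55). Ddit3 passed the test as lower without 2-week library 3 (-0.53), and Trib3 as higher without 2-week library 4 (0.64). From 2 to 8 weeks, 0 members were called in NCAC (background 0%) and 0 in Con (background 0.0318%), with 0 and 1 member at an unadjusted p under 0.05. In Con that member was Atf5 (-0.50, adjusted p = 0.151), which passed with the 2 Con groups alone in the fit (adjusted p = 0.0464). In CAC the macrophage sum was 122 to 319 TPM at 8 weeks against 81.5 to 126 TPM at 2 weeks, and the immediate early sum 104 to 603 TPM at 8 weeks against 57.0 to 126 TPM at 2 weeks; their part was not tested.

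The difference between the changes was tested directly. For Ppp1r15a, the CAC minus Con difference was 1.27 larger at 8 weeks than at 2 weeks (SE 0.33, adjusted p = 0.0103, background 10.2% called higher), and 1.06 larger after rescaling (adjusted p = 0.0265). The CAC minus NCAC difference was 1.18 larger (SE 0.33, adjusted p = 0.0247, background 4.6% called higher), and 1.05 after rescaling (adjusted p = 0.0306). The second call ended with the compared groups alone in the fit (adjusted p = 0.0612) and without CAC library 2 at 2 weeks (1.06), NCAC library 4 at 2 weeks (1.04) or NCAC library 2 at 8 weeks (1.09). No other tested member passed in these 2 tests with all libraries; Sesn2 gave 1.00 (adjusted p = 0.0852) against Con and 1.20 (adjusted p = 0.0652) against NCAC. It passed without CAC library 3 at 8 weeks in both (1.19 and 1.39) and without Con library 5 at 8 weeks in the first (1.30). Trib3 passed against Con without CAC library 4 at 2 weeks (0.84), and Atf4 against NCAC without CAC library 3 at 8 weeks (0.99). Between 6 and 8 weeks, 0 members passed (background 0.00795%), and 1 member, Ppp1r15a, had an unadjusted p under 0.05 (0.78, adjusted p = 0.546). The 8-week CAC libraries are shared by these tests.

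The wider pathway was read from 7 lists of 75 genes, of which 74 were in the table and 69 were tested. At 8 weeks, 50 of the 69 were higher in CAC than in Con (72.5%, against 52.1% of all tested genes) and 0 were lower (1.97% of all tested genes). After rescaling 17 were higher and 8 lower, against 13.5% and 12.8% of all tested genes. Compared with NCAC, 34 were higher and 1 lower, against 37.3% and 1.98% of all tested genes, and after rescaling 11 were higher and 7 lower, against 12.9% and 11.5%.

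Amino acid transporters had 6 of 7 tested genes higher in CAC at 8 weeks against Con, where 52.1% of all tested genes were. After rescaling 4 were higher, where 13.5% of all tested genes were. Slc3a2, the shared heavy chain of several amino acid exchangers, rose by 1.28 (adjusted p = 0.000254), and by 0.94 after rescaling (adjusted p = 0.00679). Slc38a2, a transporter of small neutral amino acids, held 55.4 ± 21.3 TPM in CAC (SD, n = 7) and 29.8 ± 6.58 TPM in Con (SD, n = 5). It rose by 0.79 (adjusted p = 0.00344), and the glutamine carrier Slc1a5 by 0.55 (adjusted p = 0.00484), but after rescaling neither passed (adjusted p = 0.124 and 0.397). In amino acid and one-carbon synthesis 5 of 10 genes were higher and 0 lower, near the 52.1% of all tested genes called higher. After rescaling 3 were higher and 2 lower, against 13.5% and 12.8% of all tested genes. The 3 were Gpt2, an alanine aminotransferase (1.50, adjusted p = 7.95e-05, and 1.18 after rescaling), Psat1 of serine synthesis (1.36, adjusted p = 2.74e-05, and 1.07 after rescaling) and the mitochondrial enzyme Pck2 (1.31, adjusted p = 4.31e-07). Pck2 held 10.5 ± 3.18 TPM in CAC (SD, n = 7) and 3.53 ± 0.778 TPM in Con (SD, n = 5), and its change was 1.02 after rescaling (adjusted p = 5.88e-06). Members of the serine branch did not move as a block: Phgdh, its first enzyme, differed by -0.18 (adjusted p = 0.568), and by -0.47 after rescaling (adjusted p = 0.164). The 2 genes of this list lower after rescaling were Psph (-0.49, adjusted p = 0.0134) and Shmt2 (-0.25, adjusted p = 0.024).

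The cytosolic tRNA synthetases, which charge tRNAs with amino acids, had 19 of 20 genes higher in CAC at 8 weeks, and 5 after rescaling. Of all tested genes, 52.1% and 13.5% were called higher. The largest changes were 0.60 for Cars (adjusted p = 3.39e-05), 0.57 for Eprs (adjusted p = 2.85e-05) and 0.57 for Nars (adjusted p = 4.07e-05), and after rescaling these were 0.30, 0.24 and 0.22. Against Con at 6 weeks, 16 of the 20 were higher, where 20.7% of all tested genes were, and 5 after rescaling, where 5.36% of all tested genes were. In eIF2 control at 8 weeks, 10 of 12 genes were higher, where 52.1% of all tested genes were. After rescaling 2 were, where 13.5% of all tested genes were. These were the exchange factor subunits Eif2b2 (0.62, and 0.29 after rescaling) and Eif2b1 (0.58, and 0.24 after rescaling). Eif2s1, the subunit that is phosphorylated, rose by 0.51 (adjusted p = 5.97e-06), but after rescaling by 0.17, which did not pass the test (adjusted p = 0.0559).

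Among other regulators of the pathway, 5 of 8 genes were higher against Con at 8 weeks, near the 52.1% of all tested genes called higher. After rescaling 2 were higher and 2 lower, against 13.5% and 12.8% of all tested genes. Ddit4, an inhibitor of mTORC1, held 69.0 ± 75.2 TPM in CAC (SD, n = 7) and 7.68 ± 3.78 TPM in Con (SD, n = 5), a change of 2.44 (SE 0.53, adjusted p = 0.000162), and 2.12 after rescaling (adjusted p = 0.0019). Atf3, a stress-induced repressor, held 25.5 ± 25.8 TPM in CAC and 4.54 ± 3.25 TPM in Con, a change of 1.70 (adjusted p = 0.0216), and 1.40 after rescaling (adjusted p = 0.0949). In both genes the SD within CAC was as large as the mean. Nupr1, a small stress-induced chromatin protein, rose by 0.86 (adjusted p = 0.000479), and by 0.53 after rescaling (adjusted p = 0.0279). Stc2 and Vldlr were the 2 genes lower after rescaling, by -1.33 (adjusted p = 0.0274) and -0.47 (adjusted p = 0.00577), and were named after their values were seen.

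Mitochondrial chaperones and proteases, known for responding to unfolded protein in mitochondria, had 3 of 7 genes higher against Con on deposited TPM. That was below the 52.1% of all tested genes. After rescaling 0 were higher and 4 lower, against 13.5% and 12.8% of all tested genes. The 4 lower genes were Hspd1, Hspe1, Clpp and Htra2. Clpx (0.40), Lonp1 (0.33) and Hspa9 (0.28) were the 3 higher genes, and after rescaling they stood at 0.05, -0.03 and -0.07. Of the receptors for FGF21 and GDF15, 2 of 5 tested genes were higher, and 1 after rescaling, against 52.1% and 13.5% of all tested genes. The FGF receptor Fgfr1 was 0.38 higher (adjusted p = 0.0127), but 0.05 after rescaling (adjusted p = 0.754), and Klb, the coreceptor of FGF21, differed by 0.48 (adjusted p = 0.0928), and by 0.14 after rescaling.

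**Figure D5:**
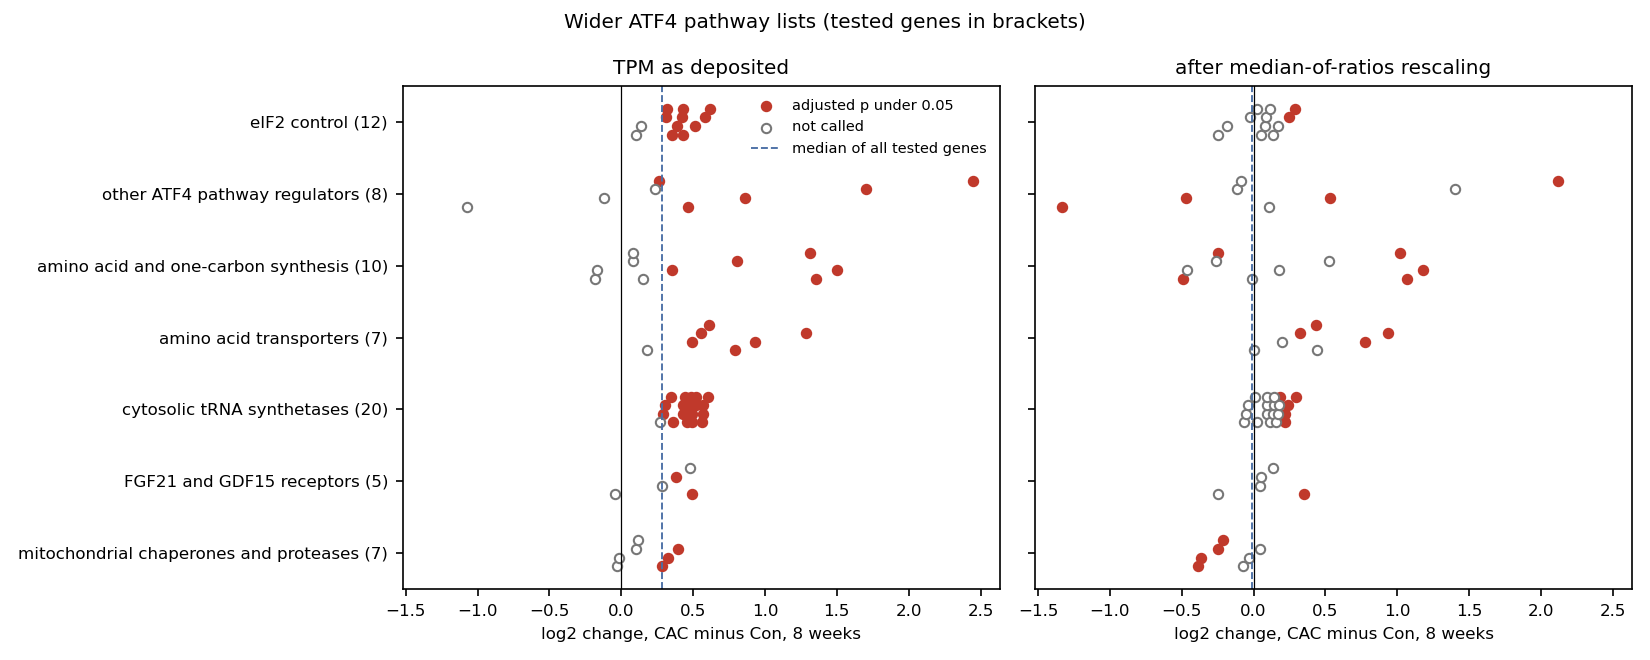
Log2 change of each tested gene of the 7 wider lists, CAC minus Con at 8 weeks, on deposited TPM (left) and after rescaling (right); filled points have an adjusted p under 0.05, and the dashed line is the median of all tested genes (0.28 and -0.01). After rescaling 5 of the 20 tRNA synthetases remain filled, at up to 0.30, and Ddit4 is farthest to the right at 2.12.

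The patterns over the 12 group means were compared between genes as the root mean square difference of standardised log2 levels, a description with no test. Between members, Ppp1r15a and Sesn2 were the closest (0.27), followed by Atf4 with Sesn2 (0.40) and with Ppp1r15a (0.40). Atf5 was at least 1.07 from every other tested member. Among tested genes other than the members with a mean of 5 TPM or more in 1 or more groups, leaving out provisional Gm and Rik names, the closest to Ppp1r15a were Csrnp1 (0.22), Plk3 (0.25) and Ern1 (0.25), to Sesn2 Tollip (0.21), Mapkbp1 (0.24) and Hipk1 (0.24), and to Atf4 Tut1 (0.16), Shb (0.20) and Nolc1 (0.21). For Asns they were Ifi35 (0.23), Stt3b (0.28) and Cndp2 (0.30), and for Chac1 Trim63 (0.29), Lgalsl (0.30) and Hsf2 (0.30). The nearest gene was farther for Trib3 (Ap4b1, 0.32), Atf5 (Derl1, 0.36), Fgf21 (Gpatch11, 0.44) and Ddit3 (Ppargc1b, 0.46).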

How the data were processed

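Brown fat RNA was prepared by the authors with Trizol and a stranded mRNA kit and sequenced on an Illumina instrument, per the labels' protocols. The deposited table holds TPM per gene symbol for 62 libraries; the genome build is mm10, per the submitters' processing notes, and the aligner, annotation and use of strand in counting are not given in the sources used here. Read depth is unknown. From the TPM values, limma 3.58.1 (R 4.3.3, trended empirical Bayes) was fitted to log2(TPM + 1) with 12 group means, after keeping the 12581 of 47643 genes that reached 1 TPM in 5 or more libraries, and 18 contrasts were tested with Benjamini-Hochberg adjustment over all tested genes within each. The fit was tested on simulated data. Figures and values used Python 3.11.15. Alternatives were pseudocount, filters, 3 rescalings, fits of the compared groups alone, a replicate block and leaving out each library. The members and lists were chosen with earlier results of these data known. Besides the members, the text names the 3 genes per wider list with the largest change among those called in CAC against Con at 8 weeks whose larger group mean was 5 TPM or more, and the 3 genes nearest in pattern to each member (only the nearest for 4 of them). Phgdh, Psph, Shmt2, Klb, Stc2, Vldlr, Hspd1, Hspe1, Clpp and Htra2 were named after their values were seen. Positions are from the GENCODE annotation of mm10.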

Additional observations from a re-analysis of the deposited data

Results flagged for a closer look

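Of 120 groups of libraries checked (10 members in 12 groups), 11 held 1 library far from the rest of its group. Chance gives about 1 in 20 groups only for independent, normally distributed values. The check used TPM without logs and the same libraries recur across members, so the 11 cannot be set against that rate. In CAC at 4 weeks, library 2 held 30.2 TPM of Ppp1r15a, where the other 4 held 7.41 to 9.79 TPM, and 1.69 TPM of Fgf21, where the others held 0.140 to 0.460 TPM. Library 4 of the same group held 66.6 TPM of Asns, against 40.0 to 46.2 TPM in the others. Trib3 stood at 12.1 TPM in CAC library 1 at 8 weeks, with 3.32 to 6.83 TPM in the other 6, and at 7.99 TPM in CAC library 4 at 2 weeks, with 2.59 to 3.61 TPM in the other 4.

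Sesn2 stood at 11.6 TPM in NCAC library 4 at 2 weeks (others 6.16 to 7.68 TPM), at 8.40 TPM in NCAC library 5 at 8 weeks (others 5.76 to 6.37 TPM) and at 16.4 TPM in Con library 5 at 8 weeks (others 3.91 to 6.42 TPM). That Con library also stood apart in Asns, at 36.6 TPM (others 29.0 to 30.7 TPM). Chac1 was 3.55 TPM in Con library 2 at 6 weeks (others 0.296 to 1.15 TPM), and Gdf15 was 0.137 TPM in NCAC library 1 at 6 weeks (others 0.0471 to 0.0690 TPM).

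Ppp1r15a was the member whose CAC difference changed with time by a direct test: the CAC minus Con difference was 1.27 larger at 8 weeks than at 2 weeks on the log2 scale (adjusted p = 0.0103), and the CAC minus NCAC difference 1.18 larger (adjusted p = 0.0247).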

How the results depend on the processing

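Of the 18 counts of called members, none changed direction under another setting, and 123 recomputed counts stayed within 1.5 times the main count while 23 did not. For CAC against Con at 8 weeks, 7 calls became 2 after median-of-ratios rescaling, 3 without mitochondrially encoded genes (2 higher and 1 lower, Atf5), 4 after quantile normalization and 4 with the compared groups alone. For CAC against NCAC at 8 weeks, 4 calls became 2 after median-of-ratios rescaling and 2 after quantile normalization. The 1 call against Con at 6 weeks became 0 under each of the 3 rescalings and 2 with the compared groups alone. The 1 call against Con at 4 weeks became 0 under each rescaling, with no filter, with the compared groups alone and without Con libraries 3 and 4. With the compared groups alone, the count also became 1 for CAC and 1 for NCAC against Con at 2 weeks (counts with all groups 0), 1 for CAC at 8 against 2 weeks (4), 1 for Con at 8 against 2 weeks (0), and 0 for the change of CAC minus NCAC between 2 and 8 weeks (1). The cause was not tested. Shares of all tested genes are given above for median-of-ratios rescaling at 8 weeks and against Con at 6 weeks. For the other settings they are not given here, so those counts cannot be set against a background.

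Leaving out 1 library gave 5 to 7 calls for CAC against Con at 8 weeks, with 5596 to 7323 of all tested genes called. Against NCAC at 8 weeks it gave 2 to 5, with 3759 to 5854 genes called. For CAC at 8 against 2 weeks it gave 2 to 5, with 1916 to 3823 genes called. Each comparison with a call at 4 or 6 weeks had 0 to 1. Genes called were 65 to 948 against Con at 4 weeks, 1593 to 3203 against Con at 6 weeks and 593 to 1072 against NCAC at 6 weeks. The change of CAC minus Con between 2 and 8 weeks had 1 to 2 calls, with 857 to 2825 genes called. That of CAC minus NCAC had 0 to 3, with 382 to 1482 genes called. Every other count stayed at 0.

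With the replicate number as a block, CAC against NCAC at 8 weeks had 2 calls and the change of CAC minus NCAC between 2 and 8 weeks 0, and no other count moved by over 1.5 times. Deviations of same-numbered libraries correlated between -0.39 and 0.48 over 60 pairs of libraries from 12 pairs of groups (median -0.03). The correlation was over 0.1 in 16, and 12 libraries correlated best with their own number. No pairing by number was seen, though weak correlations cannot exclude one. Read depth is unknown, which limits Fgf21, Gdf15, Chac1 and Trib3 most.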
